A study of Mus musculus with 8 samples.

Results

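Striatal RNA from 8 male mice of the inbred strain C57BL/6 was hybridised to whole-transcript arrays, 1 per mouse and 2 mice in each of 4 groups, and the genes described here encode receptor subunits for GABA and glutamate. The genes were taken by symbol, as those named for a subunit of the GABA-A, GABA-B, AMPA, kainate, NMDA, delta or metabotropic glutamate receptors, on probe sets annotated with 1 gene. This gave 42 of the 19938 genes with such a probe set, each represented by its probe set with the highest mean. Of these, 41 encode receptor subunits, and the remaining one, Grid2ip, matched by its symbol and encodes delphilin, a scaffold protein that binds a delta receptor. Some subunits of these families are not analysed here.

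All mice were 6 weeks old at the start. The control group received daily saline injections for 4 weeks and no MPTP. The other groups received MPTP, a toxin that damages the dopamine axons reaching the striatum, at 20 mg/kg every 24 h for 4 weeks. The MPTP group had no needling. Mice of the acupoint group were also needled on both sides, to a depth of 3 mm at the point GB34 and of 1 mm at LR3. In the non-acupoint group the needles entered both hips to 3 mm. Each needled mouse had 14 sessions, spaced by 48 h. The labels give no handling or sham needling for the control and MPTP groups, so needling and the handling that goes with it cannot be told apart. The comparisons ask what MPTP changed and whether needling, or its site, moved it.

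GABA is the main inhibitory transmitter of the brain and glutamate the main excitatory one. GABA-A receptors are chloride channels built of several subunits around a pore, and AMPA, kainate and NMDA receptors are cation channels built of glutamate-binding subunits. GABA-B and metabotropic glutamate receptors act through G proteins. The projection neurons of the striatum release GABA themselves and are driven by glutamate from the cortex and the thalamus, so both receptor systems lie at the centre of striatal signalling.

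Values are log2 signals, in which a difference of 1 is a doubling. Each gene was compared over the mice only, since the level of a probe set cannot be set against that of another. A gene was tested if its mean over the 8 arrays was at least 5.25, which 38 of the 42 did. These 38 are 37 receptor subunit genes and Grid2ip, and counts over them are given as counts of the genes tested. Gabra6, known from cerebellar granule cells, Gabrp, known mainly outside the brain, and Gabrr1 and Gabrr3, known mainly from the retina, lay below it with means between 4.36 and 4.72 and were not tested. In tissue RNA, fewer cells of a type and less RNA per cell cannot be told apart.

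The arrays differed in the levels of markers of striatal neurons and of bordering regions, and these values are given first. Their part in the values of the receptor genes was not tested. Markers of striatal projection neurons were well measured, with 13 genes tested that included Drd1, Drd2 and Penk. Relative to the control mean, they averaged -1.96 in MPTP mouse 1, with 0 of 13 above the control mean, and 0.35 in MPTP mouse 2, with all 13 above it. They lay between -0.61 and 0.25 in the needled mice. Markers of thalamus, septum and pallidum, the regions that border the striatum, averaged 1.64 in MPTP mouse 1 with 16 of 17 above the control mean, and -0.48 in MPTP mouse 2 with 5 above it. The next highest were non-acupoint mouse 2 at 1.17 and acupoint mouse 1 at 0.58. Choroid plexus markers averaged 2.34 to 3.05 in MPTP mouse 1, acupoint mouse 1 and both non-acupoint mice, and -0.13 and 0.17 in the other MPTP and acupoint mice. Cerebellar granule cell markers averaged between -0.28 and 0.46 over the MPTP-treated arrays. For the 38 genes tested, the pooled standard deviation within a group was 0.58 in the MPTP group, 0.21 and 0.20 in the acupoint and non-acupoint groups and 0.08 in controls. Over all probe sets tested it was 0.36, 0.17, 0.17 and 0.12 in the same order.

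**Figure D1:**
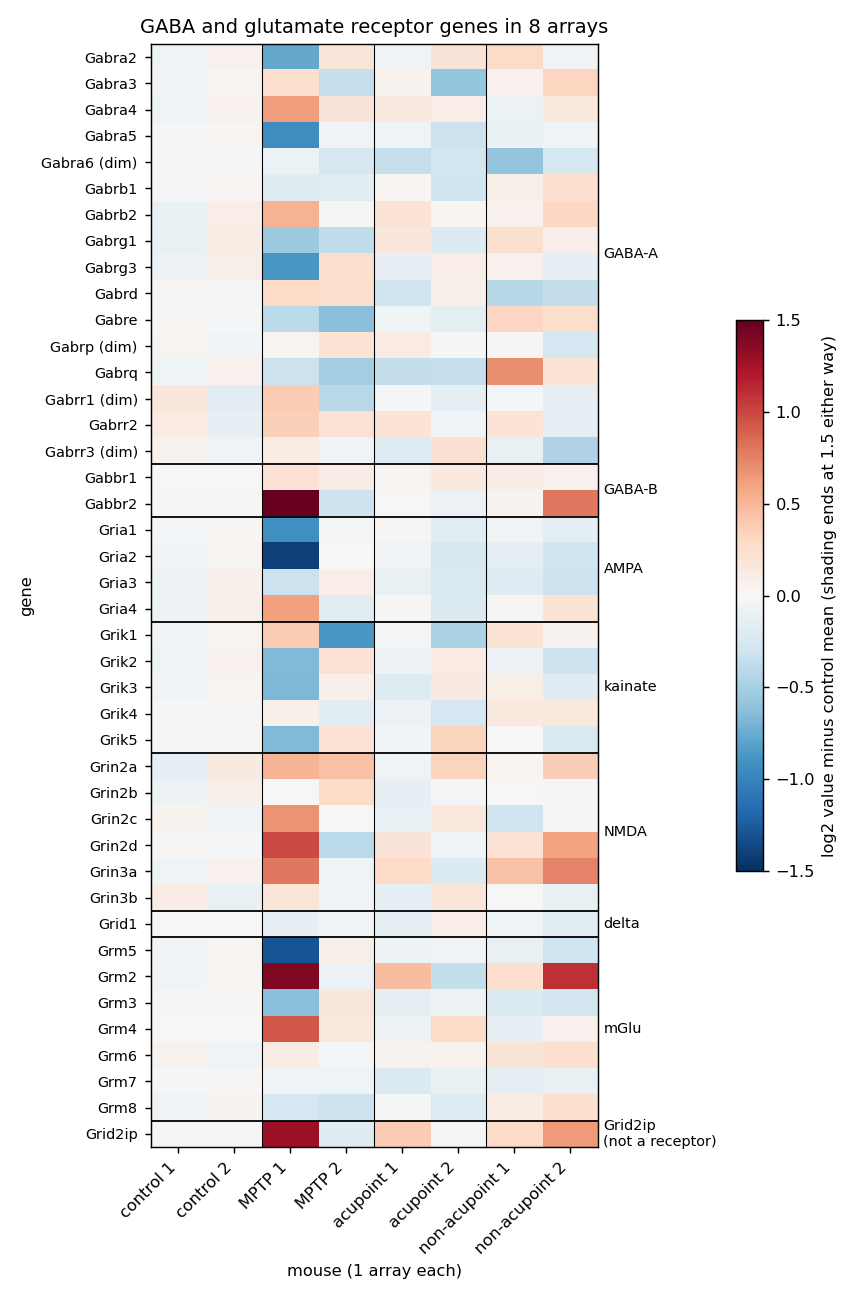
Log2 value of each of the 42 genes (rows, grouped by receptor family) in each of the 8 mice (columns), minus the mean of both controls, with blue lower and red higher. Genes marked dim were below the test threshold. MPTP mouse 1 carries the strongest colours, such as 1.66 for Gabbr2 and -1.40 for Gria2, and MPTP mouse 2 often has the opposite sign.

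No gene of the 38 passed the test in any comparison. Limma, a linear model over all genes, called 0 of the 38 genes and 0 of 16342 probe sets (0%) at an adjusted p under 0.05 for MPTP against control, acupoint against MPTP, non-acupoint against MPTP, acupoint against non-acupoint, and each needled group against control. At an unadjusted p under 0.05 the genes tested numbered 6, 3, 6, 4, 0 and 3 in that order. The shares of all probe sets under that value were 3.99%, 3.6%, 6.58%, 3.22%, 1.91% and 6.05%, against 15.8%, 7.89%, 15.8%, 10.5%, 0% and 7.89% of the 38 genes. An F-test for any difference between the 4 groups gave 5 of the 38 genes (13.2%) at an unadjusted p under 0.05, against 3.71% of all probe sets. Those 5 were Gabre, Gabrq, Gabrd, Grm8 and Gabrg1, with unadjusted p-values of 0.00098, 0.0050, 0.011, 0.019 and 0.026 and an adjusted p of 0.92 each. The count of 5 became 9 without MPTP mouse 1, 24 without MPTP mouse 2 and 3 without non-acupoint mouse 1. The shares of all probe sets became 9.17%, 22.2% and 3.35%.

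The minor GABA-A subunits epsilon and theta had low values in both MPTP mice and high values in both non-acupoint mice, none past the adjusted threshold. Gabre encodes epsilon and Gabrq theta. Both are known mainly from the hypothalamus and brainstem nuclei, and their genes are near neighbours on the X chromosome. For Gabre the log2 signals were 5.65 and 5.61 in controls, 5.22 and 5.003 in MPTP mice, 5.56 and 5.49 in acupoint mice and 5.94 and 5.89 in non-acupoint mice. The 4 groups did not overlap, and both mice of a group lay within 0.22 of each other. MPTP mice were lower than controls by a difference of -0.51 (SE 0.11, unadjusted p = 0.0020, adjusted p = 0.93). Non-acupoint mice were above MPTP mice by 0.80 (SE 0.11, unadjusted p = 0.00015, adjusted p = 0.34), the smallest p-value of any of the 38 genes in these comparisons. Acupoint mice were above MPTP mice by 0.41 (SE 0.11, adjusted p = 0.90) and below non-acupoint mice by a difference of -0.39 (adjusted p = 0.96). The mean of this probe set, 5.55, was only slightly above the test threshold.

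For Gabrq they were 6.67 and 6.79 in controls, 6.42 and 6.22 in MPTP mice, 6.38 and 6.39 in acupoint mice and 7.43 and 6.94 in non-acupoint mice. Acupoint mice lay within the range of the MPTP mice, and both non-acupoint mice lay above all others. The MPTP difference was -0.42 (SE 0.17, unadjusted p = 0.043, adjusted p = 0.93). Non-acupoint needling stood 0.86 above MPTP (SE 0.17, unadjusted p = 0.0014, adjusted p = 0.55), and acupoint needling was lower than non-acupoint needling by a difference of -0.80 (SE 0.17, unadjusted p = 0.0022, adjusted p = 0.96).

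Gabrg1, which encodes the gamma 1 subunit, showed the same order of group means. Its log2 values were 8.70 and 8.93 in controls, 8.25 and 8.43 in MPTP mice, 8.99 and 8.61 in acupoint mice and 9.06 and 8.89 in non-acupoint mice. Both MPTP mice lay below all 6 others. The difference was -0.47 for MPTP against control (SE 0.16, unadjusted p = 0.021), 0.46 for acupoint against MPTP (SE 0.16) and 0.63 for non-acupoint against MPTP (SE 0.16, unadjusted p = 0.0055), with adjusted p-values of 0.93, 0.90 and 0.62. The acupoint value was 0.27 without acupoint mouse 1. Grm8, a group III metabotropic receptor that inhibits transmitter release, had 7.40 and 7.51 in controls, 7.19 and 7.14 in MPTP mice, 7.43 and 7.26 in acupoint mice and 7.57 and 7.70 in non-acupoint mice. Its MPTP mice were again the lowest of all, with a difference from controls of -0.29 (SE 0.11, adjusted p = 0.93), and non-acupoint mice were 0.47 above them (SE 0.11, adjusted p = 0.59).

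Some markers of neighbouring brain regions and of the ventricle wall were low in both MPTP mice too. These were lists for hypothalamus and extended amygdala, lateral septum and ependymal cells, chosen after seeing the data. The list for thalamus, septum and pallidum was not, at 1.64 and -0.48 in MPTP mice 1 and 2. In non-acupoint mouse 2 the ependymal list averaged above controls, and the hypothalamic and lateral septum lists did not. Relative to controls, 7 markers of hypothalamus and extended amygdala averaged -0.42 and -0.37 in MPTP mice 1 and 2, with 1 of 7 above the control mean in each. They averaged -0.10 and -0.24 in acupoint mice and 0.46 and -0.11 in non-acupoint mice, with 7 and 1 of 7 above the control mean in the last group. The 4 lateral septum markers averaged -0.87 and -0.54 in MPTP mice, 0.23 and -0.24 in acupoint mice and 0.37 and -0.00 in non-acupoint mice. In non-acupoint mouse 2, Gabre, Gabrq, Gabrg1 and Grm8 stood at 0.26, 0.20, 0.08 and 0.24 above the control mean. The 6 ependymal markers averaged -0.60 and -0.33, then 0.14 and -0.10, then 0.17 and 0.39, with all 6 above the control mean in non-acupoint mouse 2. Of the hypothalamic markers, only Baiap3 and Irs4 are given here by mouse. Their log2 values were 7.55 and 6.46 in MPTP mouse 1 and 8.70 and 7.80 in non-acupoint mouse 1. Gabrq was highest in non-acupoint mouse 1, at 7.43, but lowest in MPTP mouse 2, at 6.22. The part of tissue makeup in the values of Gabre, Gabrq, Gabrg1 and Grm8 was not tested. With the mean of the thalamus, septum and pallidum markers as a covariate, their MPTP differences were -0.56, -0.41, -0.44 and -0.32. That list went opposite ways in the MPTP mice, so this fit cannot show the part of markers low in both.

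**Figure D2:**
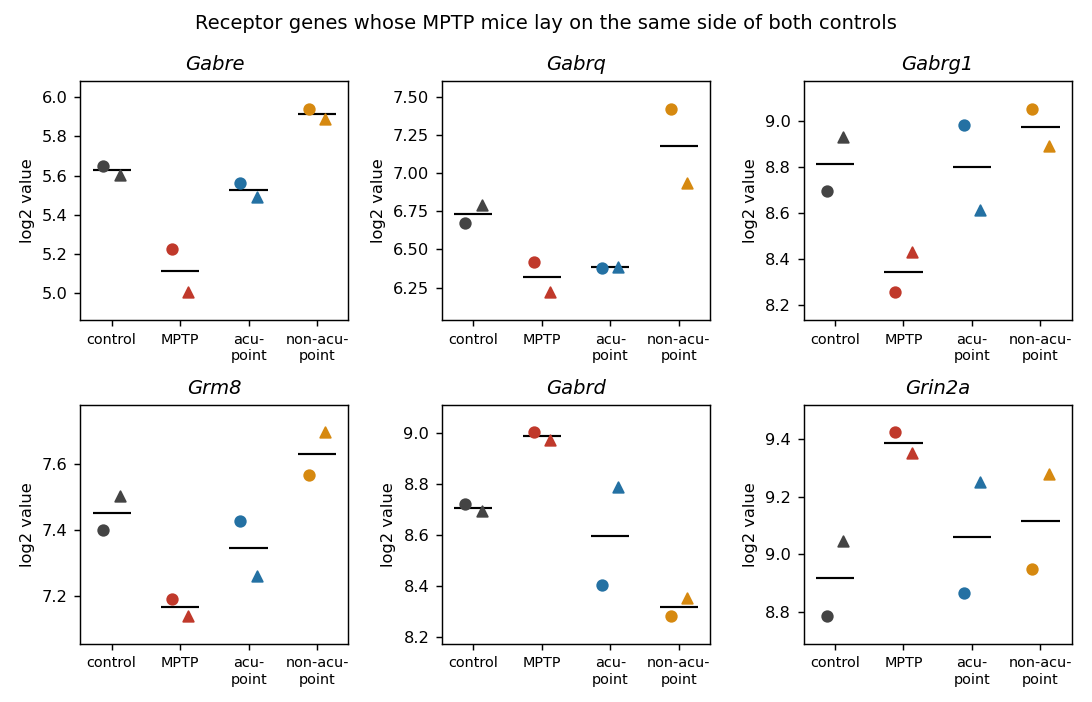
Log2 values of 6 genes in the 4 groups, with circles for mouse 1, triangles for mouse 2 and a line at each group mean. Gabre, Gabrq, Gabrg1 and Grm8 are lower in both MPTP mice than in both controls, and Gabrd and Grin2a are higher in both.

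The upstream sequences of the epsilon, theta and gamma 1 genes are shown as examples of GABA-A genes with the same order of group means. Gabrb1 and Grm8 had that order too. The acupoint mean of Gabrq lay near that of MPTP mice (6.38 against 6.32), and that of Gabrg1 near that of controls (8.80 against 8.81). Each is the 250 bases before the annotated start, 5′ to 3′ on the gene's strand, from RefSeq (build GRCm38.p6), which held a promoter for 32 of the 42 genes, too few for a statement over all of them. Capitals mark the GC box GGGCGG, a match of the transcription factor Sp1, or its reverse complement. Each window was searched on both strands for GGGCGG, for the cyclic AMP response element TGACGTCA, for the motif of nuclear respiratory factor 1 and for the TATA box TATAAA. Gabre is at chrX:72274722-72274971 (minus strand), Gabrq at chrX:72824928-72825177 (plus strand) and Gabrg1 at chr5:70842618-70842867 (minus strand).
Gabre: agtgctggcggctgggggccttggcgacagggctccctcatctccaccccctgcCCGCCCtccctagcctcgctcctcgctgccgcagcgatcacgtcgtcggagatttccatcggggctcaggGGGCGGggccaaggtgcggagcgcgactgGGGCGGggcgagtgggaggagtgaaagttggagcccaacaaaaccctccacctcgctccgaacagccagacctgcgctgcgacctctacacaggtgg
Gabrq: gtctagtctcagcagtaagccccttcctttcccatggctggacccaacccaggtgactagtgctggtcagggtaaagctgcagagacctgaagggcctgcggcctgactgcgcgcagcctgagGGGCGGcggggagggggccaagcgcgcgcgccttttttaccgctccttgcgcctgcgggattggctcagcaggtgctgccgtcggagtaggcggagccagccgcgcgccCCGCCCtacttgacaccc
Gabrg1: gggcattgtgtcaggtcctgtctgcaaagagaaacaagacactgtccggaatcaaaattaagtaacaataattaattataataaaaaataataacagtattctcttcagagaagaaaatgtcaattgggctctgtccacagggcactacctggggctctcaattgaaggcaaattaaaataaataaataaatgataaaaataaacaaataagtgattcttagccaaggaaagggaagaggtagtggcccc
The GC box occurred 3 times in the window of Gabre, 2 times in that of Gabrq and 0 times in that of Gabrg1, and 32.7% of all 32851 promoter windows of this length held it. None of the other motifs occurred in these windows, where 1.55%, 0.782% and 12.4% of all windows held the cyclic AMP element, the nuclear respiratory factor motif and the TATA box. The window of Gabrg1 had a GC content of 35.6%, against 68.8% in Gabre and 67.2% in Gabrq. A match describes letters only, and a window without one says nothing about the factor.

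Among the remaining GABA-A subunits, 3 patterns were seen. The first was that of Gabrd, which encodes the delta subunit of receptors outside synapses that carry tonic inhibition, and Gabra4, an alpha subunit that pairs with delta in striatal projection neurons. Gabrd had 8.72 and 8.69 in controls, 9.00 and 8.97 in MPTP mice, 8.41 and 8.79 in acupoint mice and 8.28 and 8.36 in non-acupoint mice, so that both MPTP mice lay above all 6 others. The difference was 0.28 for MPTP against control (SE 0.14, adjusted p = 0.93), -0.67 for non-acupoint against MPTP (SE 0.14, unadjusted p = 0.0017, adjusted p = 0.58) and -0.39 for acupoint against MPTP (SE 0.14, adjusted p = 0.90). The last was -0.20 without acupoint mouse 1. Gabra4 had 10.84 and 10.96 in controls, 11.53 and 11.10 in MPTP mice, 11.03 and 11.01 in acupoint mice and 10.81 and 11.06 in non-acupoint mice. Its MPTP mice were also above all others, with a difference from controls of 0.41 (SE 0.16, unadjusted p = 0.039, adjusted p = 0.93), which was 0.20 without MPTP mouse 1.

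The second pattern was a low value in MPTP mouse 1 alone. Gabra2, an alpha subunit of synaptic receptors, had 8.64 and 8.78 in controls, 7.94 and 8.89 in MPTP mice, 8.66 and 8.90 in acupoint mice and 8.99 and 8.65 in non-acupoint mice. The difference of means was -0.29 (SE 0.29) for MPTP against control, and MPTP mouse 2 lay above both controls. Gabra5, an alpha subunit tied to tonic inhibition, ranged from 9.02 to 9.37 in the 7 other mice and was 8.41 in MPTP mouse 1. Gabrg3, which encodes gamma 3, ranged from 8.67 to 9.04 in the 7 other mice and was 7.93 in MPTP mouse 1.

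The third pattern was a high value in that mouse. Gabrb2, a beta subunit, had 10.96 and 11.16 in controls, 11.59 and 11.08 in MPTP mice, 11.27 and 11.09 in acupoint mice and 11.12 and 11.37 in non-acupoint mice. Its 3 probe sets gave MPTP differences of 0.27, 0.21 and 0.14, all with standard errors of 0.19 or more. Gabra3, the alpha 3 gene, was high in MPTP mouse 1 and non-acupoint mouse 2 (10.23 and 10.29) and low in MPTP mouse 2 and acupoint mouse 2 (9.63 and 9.39). The remaining tested GABA-A genes were Gabrb1 and Gabrr2. Gabrb1 followed none of these patterns, but its group means had the order seen for Gabre, Gabrq and Gabrg1. Gabrb1, the beta 1 gene, was slightly below the control mean in both MPTP mice, at -0.18 and -0.16. It lay between 9.80 and 10.35, and was higher in non-acupoint than in MPTP mice by 0.34 (SE 0.13, unadjusted p = 0.034, adjusted p = 0.74). Gabrr2, a rho subunit, lay between 5.46 and 5.96. Its MPTP mice, at 5.96 and 5.82, were above all others as in the first pattern, though acupoint mouse 1 was close at 5.81.

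Several GABA-A genes lie side by side in the genome, and neighbours did not always have departures of the same sign. By the RefSeq gene order, Gabrg1, Gabra2, Gabra4 and Gabrb1 follow each other on chromosome 5 with 1 other protein-coding gene among them. In MPTP mouse 1 they stood at -0.56, -0.77, 0.63 and -0.18 relative to the control mean, and in MPTP mouse 2 at -0.38, 0.18, 0.20 and -0.16. Within this cluster Gabra4 thus went against its neighbours in MPTP mouse 1. Gabrg3 and Gabra5, adjacent on chromosome 7, stood at -0.87 and -0.93 in MPTP mouse 1. On the X chromosome Gabra3 lies between Gabre and Gabrq, with 1 protein-coding gene separating it from Gabre. Gabre and Gabrq were below the control mean in both MPTP mice (-0.40 and -0.62 for Gabre, -0.32 and -0.52 for Gabrq), while Gabra3 was at 0.26 and -0.34.

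**Figure D3:**
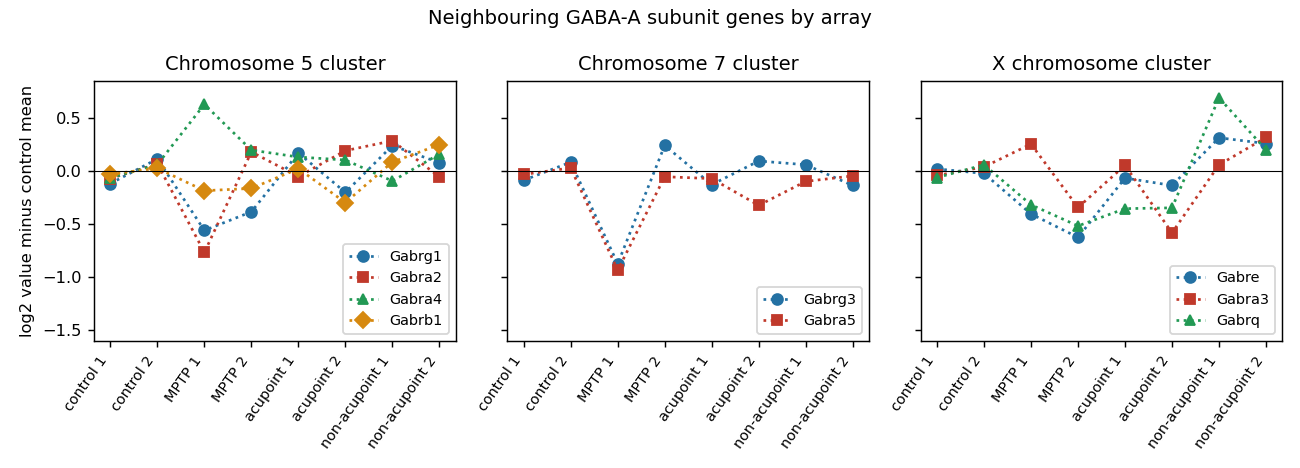
Log2 values minus the control mean for GABA-A subunit genes of 3 chromosomal clusters, by mouse, with dotted lines only to guide the eye. On the X chromosome Gabre and Gabrq are below the control mean in both MPTP and both acupoint mice where Gabra3 is not always, and on chromosome 5 Gabra4 stands at 0.63 in MPTP mouse 1 where Gabra2 stands at -0.77.

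The GABA-B receptor is made of both its subunits, and these differed in how far they varied. Gabbr1, which binds GABA, hardly varied, with 11.27 and 11.25 in controls, 11.48 and 11.37 in MPTP mice, 11.30 and 11.40 in acupoint mice and 11.37 and 11.32 in non-acupoint mice. All 6 MPTP-treated mice were above both controls, with a difference of 0.16 for MPTP against control (SE 0.10, adjusted p = 0.93). Gabbr2, which couples the receptor to its G protein, had the widest range of all 42 genes, 1.97. It had 9.29 and 9.33 in controls, 10.97 and 9.00 in MPTP mice, 9.30 and 9.22 in acupoint mice and 9.36 and 10.10 in non-acupoint mice. The arrays high in it, MPTP mouse 1 and non-acupoint mouse 2, were those highest in thalamus, septum and pallidum markers, and the difference of 0.67 between MPTP and control means had an SE of 0.57.

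AMPA receptor subunits carry fast excitation. Gria2, which sets whether the channel lets calcium pass, had 11.52 and 11.61 in controls, 10.17 and 11.56 in MPTP mice, 11.51 and 11.32 in acupoint mice and 11.43 and 11.26 in non-acupoint mice. MPTP mouse 1 lay more than 1 below every other array, and MPTP mouse 2 lay between the controls. Gria1 had 11.19 and 11.22 in controls, 10.28 and 11.17 in MPTP mice, 11.22 and 11.04 in acupoint mice and 11.15 and 11.07 in non-acupoint mice, again with MPTP mouse 1 as the only low array. The MPTP differences were -0.70 (SE 0.39) for Gria2 and -0.48 (SE 0.26) for Gria1, and without MPTP mouse 1 they were -0.01 and -0.03. Gria3 was also lowest in MPTP mouse 1, at 10.09, while Gria4 was highest there, at 10.47 against 9.65 to 10.06 elsewhere.

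The upstream windows of Gabbr2 and Gria2 are shown side by side, as those of the genes with the largest opposite departures of MPTP mouse 1, with capitals as above. Gabbr2 is at chr4:46991715-46991964 (minus strand) and Gria2 at chr3:80802836-80803085 (minus strand).
Gabbr2: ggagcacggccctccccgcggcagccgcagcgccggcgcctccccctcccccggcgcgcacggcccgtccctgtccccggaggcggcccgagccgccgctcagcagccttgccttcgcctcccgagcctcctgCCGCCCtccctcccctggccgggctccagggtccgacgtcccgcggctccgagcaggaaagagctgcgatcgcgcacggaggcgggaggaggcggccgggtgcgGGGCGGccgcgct
Gria2: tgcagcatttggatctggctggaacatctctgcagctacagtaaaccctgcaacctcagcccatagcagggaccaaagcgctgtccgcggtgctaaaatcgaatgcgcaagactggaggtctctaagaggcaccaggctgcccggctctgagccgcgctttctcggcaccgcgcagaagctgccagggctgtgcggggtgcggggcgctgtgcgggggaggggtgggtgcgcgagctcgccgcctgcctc
The window of Gabbr2 had 2 GC boxes and a GC content of 80.8%. That of Gria2 had 0 GC boxes and a GC content of 64.8%. The 3 other motifs searched occurred in neither.

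Kainate receptor genes had lower MPTP means in all 5 cases, by differences between -0.30 and -0.05, and none had an unadjusted p under 0.05. Grik2, a main kainate subunit of the striatum, had 9.49 and 9.61 in controls, 8.88 and 9.76 in MPTP mice, 9.47 and 9.67 in acupoint mice and 9.46 and 9.23 in non-acupoint mice. Grik3 and Grik5 were likewise lowest in MPTP mouse 1, at -0.67 and -0.66 relative to controls, and above the control mean in MPTP mouse 2. Grik1 went the other way, with 6.92 and 6.997 in controls, 7.34 and 6.08 in MPTP mice, 6.94 and 6.49 in acupoint mice and 7.16 and 7.02 in non-acupoint mice, so the low MPTP mean came from mouse 2. Grik4 was lower in acupoint than in non-acupoint mice by a difference of -0.33 (SE 0.12, unadjusted p = 0.028, adjusted p = 0.96).

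NMDA receptor genes had higher MPTP means in all 6 cases, with a median difference of 0.32, and lower acupoint than MPTP means in all 6, with a median of -0.27. Both comparisons use the same MPTP arrays, so the second count is not separate evidence. Over all probe sets tested the medians were 0.01 and -0.04. Grin2a, the subunit of mature NMDA receptors with fast decay, had 8.79 and 9.05 in controls, 9.42 and 9.35 in MPTP mice, 8.87 and 9.25 in acupoint mice and 8.95 and 9.28 in non-acupoint mice. Both MPTP mice were above all others, by 0.47 over controls (SE 0.18, unadjusted p = 0.032, adjusted p = 0.93), although the controls themselves differed by 0.26. Grin2b, the subunit prominent in striatal projection neurons, had 10.15 and 10.29 in controls, 10.22 and 10.50 in MPTP mice, 10.10 and 10.20 in acupoint mice and 10.22 and 10.21 in non-acupoint mice, with a difference of 0.14 (SE 0.12).

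Of the remaining NMDA genes, Grin2d, whose subunit gives slowly decaying currents, had 7.06 and 7.02 in controls, 8.03 and 6.64 in MPTP mice, 7.24 and 6.97 in acupoint mice and 7.25 and 7.64 in non-acupoint mice. Grin3a, which lowers calcium flow through the receptor, had its highest values of 8.58 and 8.54 in MPTP mouse 1 and non-acupoint mouse 2, against 7.73 and 7.85 in controls. Both genes were thus highest in the arrays rich in thalamus, septum and pallidum markers. Grin2c was highest in MPTP mouse 1 (7.67), and Grin3b lay between 5.65 and 5.97. Without MPTP mouse 1 the differences for Grin2d, Grin3a and Grin2c from controls were -0.40, -0.07 and 0.01, while that of Grin2a was 0.44. The single delta receptor gene measured, Grid1, lay between 8.67 and 8.94.

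Metabotropic glutamate receptors fall into 3 groups by sequence and signalling. Grm5, the group I receptor of striatal projection neurons, which raises intracellular calcium, had 11.59 and 11.66 in controls, 10.33 and 11.71 in MPTP mice, 11.54 and 11.57 in acupoint mice and 11.51 and 11.33 in non-acupoint mice. Grm2 and Grm3 form group II, which lowers cyclic AMP, and they departed in opposite directions in MPTP mouse 1. Grm2 had 7.23 and 7.31 in controls, 8.66 and 7.19 in MPTP mice, 7.73 and 6.92 in acupoint mice and 7.52 and 8.37 in non-acupoint mice. Grm3 was 10.54 in MPTP mouse 1 and lay between 10.89 and 11.35 in the other mice. The MPTP differences were -0.61 (SE 0.39) for Grm5, 0.66 (SE 0.51) for Grm2 and -0.23 (SE 0.23) for Grm3, and without MPTP mouse 1 they were 0.09, -0.08 and 0.17.

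In group III, Grm4, which acts on the terminals of striatal neurons in the pallidum, had 7.86 and 7.84 in controls, 8.78 and 8.02 in MPTP mice, 7.77 and 8.13 in acupoint mice and 7.74 and 7.91 in non-acupoint mice. MPTP mice were above controls by 0.55 (SE 0.25, adjusted p = 0.93), or 0.16 without MPTP mouse 1. Grm7 lay between 8.75 and 8.98. Grm6, known from retinal bipolar cells, lay between 5.42 and 5.71. The scaffold gene Grid2ip followed Grm2, with 6.15 and 6.18 in controls, 7.46 and 5.98 in MPTP mice, 6.55 and 6.14 in acupoint mice and 6.45 and 6.80 in non-acupoint mice.

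**Figure D4:**
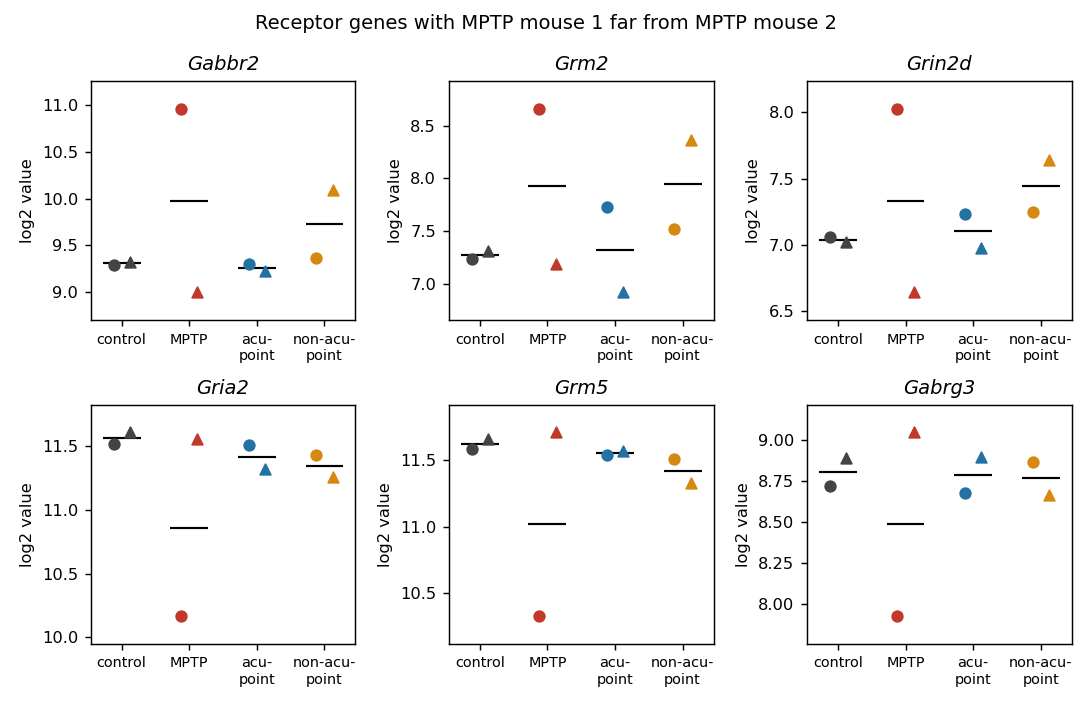
Log2 values of 6 genes in the 4 groups, with circles for mouse 1, triangles for mouse 2 and a line at each group mean. MPTP mouse 1 is the highest array for Gabbr2, Grm2 and Grin2d and the lowest for Gria2, Grm5 and Gabrg3, while MPTP mouse 2 lies near the controls or on their other side.

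The genes tested often differed between both MPTP mice. Of the 38, 21 (55.3%) differed by 0.5 or more between MPTP mice 1 and 2, against 17.5% of all probe sets, and 8 (21.1%) by 1 or more, against 5.07%. Over the 37 subunit genes alone these counts were 20 and 7. Higher in mouse 1 by 0.5 or more were 11 genes (Gabra3, Gabrb2, Gabbr2, Gria4, Grik1, Grin2c, Grin2d, Grin3a, Grm2, Grm4 and the scaffold gene Grid2ip). Lower by as much were 10 (Gabra2, Gabra5, Gabrg3, Gria1, Gria2, Grik2, Grik3, Grik5, Grm5 and Grm3). In controls 0 of the 38 differed by 0.5 or more, where 0.875% of all probe sets did, and 0 by 1 or more, where 0.00612% did. In the acupoint group 3 (7.89%) did, against 3.61% of all probe sets, and in the non-acupoint group 2 (5.26%), against 4.21%.

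The non-acupoint pair often differed in the same sense, by smaller amounts. Non-acupoint mouse 2 was the array of its group richer in thalamus, septum and pallidum markers, and it shares no array with the MPTP pair. The difference of MPTP mouse 1 over mouse 2 and that of non-acupoint mouse 2 over mouse 1 had the same sign in 30 of the 38 genes (78.9%), against 61.5% of all probe sets. Across genes their correlation was 0.72 for the 38 genes and 0.49 for all probe sets, where genes are not independent of each other. For acupoint mouse 1 over mouse 2, which also differed in these markers, the sign was shared by 23 of 38 genes (60.5%), against 57.7% of all probe sets, and the correlation was 0.43 against 0.40. The order of the mice was chosen by those markers. Gabbr2 and Grm2 were higher by 1.97 and 1.48 in the first pair and by 0.73 and 0.85 in the second. Gabra2 was lower by differences of -0.95 and -0.34. The signs were opposite in 8 genes. Gabrq stood at 0.20 and -0.49, Gabrr2 at 0.14 and -0.34, Grik1 at 1.26 and -0.14 and Gabra5 at -0.88 and 0.05. The others were Gabre, Gabrb1, Gabbr1 and Grin3b, with differences of at most 0.22 in size in both pairs.

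**Figure D5:**
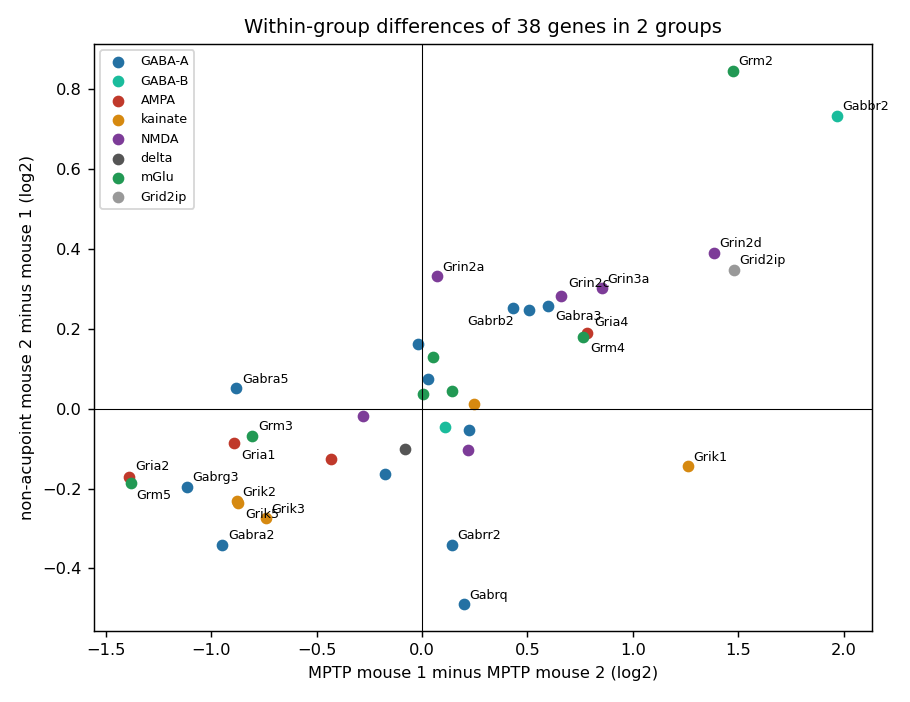
Each point is 1 of 38 genes, with the log2 difference of MPTP mouse 1 over mouse 2 on the horizontal axis and that of non-acupoint mouse 2 over mouse 1 on the vertical axis, coloured by receptor family. Most points lie in the lower left and upper right, with Gabbr2 and Grm2 at the far upper right.

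In MPTP against control, groups did not overlap for 15 of the 38 genes (39.5% against 29.3% of all probe sets), with 6 higher (Gabbr1, Gabra4, Gabrd, Gabrr2, Grin2a and Grm4) and 9 lower genes, which are 15.8% and 23.7% of those tested, against 17.3% and 12.1% of all probe sets. The 9 lower were Gabra5, Gabrb1, Gabre, Gabrg1, Gabrq, Gria1, Grid1, Grm7 and Grm8. In all, 17 of the 38 genes had higher and 21 lower means, with a median difference of -0.05, where the median of all probe sets was 0.01. Of the 6 genes at an unadjusted p under 0.05, 2 were higher (Gabra4 and Grin2a; 2.11% of all probe sets) and 4 lower (Gabre, Gabrg1, Gabrq and Grm8; 1.88%). This count of 6 became 2 without either control, where the shares of all probe sets were 1.73% without control mouse 1 and 1.94% without control mouse 2. It became 24 without MPTP mouse 2, where 25.7% of all probe sets were under that value.

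For acupoint against MPTP, groups did not overlap in 9 of the 38 genes (23.7% against 27.3% of all probe sets), with 3 higher genes (Gabre, Gabrg1 and Grm8; 7.89% against 8.41% of all probe sets) and 6 lower genes (15.8% against 18.9%). The shares lay near those of all probe sets. The lower genes were Gabra4, Gabrd, Gabrr2, Grin2a, Grin2b and Grm7, of which Grin2a differed by -0.33 (SE 0.18, adjusted p = 0.90), or -0.14 without acupoint mouse 1. At an unadjusted p under 0.05, Gabre and Gabrg1 were higher (1.04% of all probe sets) and Gabrd lower (2.56%). This count of 3 became 5 without MPTP mouse 1, 24 without MPTP mouse 2 and 1 without acupoint mouse 1, where the shares of all probe sets were 5.34%, 25.9% and 2.97%.

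For non-acupoint against MPTP, groups did not overlap in 14 of the 38 genes (36.8% against 33.1% of all probe sets), with 7 higher and 7 lower (18.4% each, against 15.4% and 17.7% of all probe sets). Beside those given above, Gabra4 differed by -0.38 (SE 0.16, unadjusted p = 0.053, adjusted p = 0.74), or -0.16 without MPTP mouse 1. The 6 genes at an unadjusted p under 0.05 were Gabrd, lower (3.07% of all probe sets), and Gabre, Gabrq, Grm8, Gabrg1 and Gabrb1, higher (3.51%). Their number became 16 without MPTP mouse 1 and 22 without MPTP mouse 2, where the shares of all probe sets were 14.6% and 23.1%.

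Between the needled groups, which did not overlap in 17 of the 38 genes (44.7% against 38.5% of all probe sets), 4 receptor genes were higher with acupoint needling without overlap (10.5% against 13.9% of all probe sets) and 13 lower (34.2% against 24.6%). The higher ones were Gabrd, by 0.28 (SE 0.14), Grik2, by 0.23 (SE 0.27), Grm3 and Grm5. Those at an unadjusted p under 0.05 were Gabrq, Gabre, Grik4 and Grm8, all lower with acupoint needling (2.12% of all probe sets), and 0 were higher (1.1%). Their number was 7 without MPTP mouse 1, MPTP mouse 2 or acupoint mouse 1, and 2 without acupoint mouse 2 or non-acupoint mouse 2. The shares of all probe sets were 7.8% without either MPTP mouse, 5.7% without acupoint mouse 1, 0.795% without acupoint mouse 2 and 1.06% without non-acupoint mouse 2. Against controls, acupoint mice did not overlap in 12 of the 38 genes (31.6% against 33.9%), and 0 had an unadjusted p under 0.05 (0.618% of all probe sets higher and 1.29% lower). Non-acupoint mice did not overlap with controls in 24 (63.2% against 49.5%), of which 14 were higher (36.8% against 26.9%) and 10 lower (26.3% against 22.6%). At an unadjusted p under 0.05, Gabre and Gabrq were higher, by 0.29 (SE 0.11) and 0.45 (SE 0.17), and Gabrd was lower, by a difference of -0.39 (SE 0.14), each with an adjusted p of 0.77. The shares of all probe sets were 3.76% higher and 2.29% lower. This count of 3 became 0 without either control or without non-acupoint mouse 1, 1 without non-acupoint mouse 2 and 9 without either MPTP mouse. The shares of all probe sets were 1.47% and 4.37% without control mouse 1 and 2, 7.58% and 1.7% without non-acupoint mouse 1 and 2, and 12.4% without either MPTP mouse.

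Other genes of the same synapses, from lists drawn up with earlier results of these data known, also gave 0 calls after adjustment in every comparison. For MPTP against control, genes of GABA synthesis and transport were higher in 2 and lower in 6 of 8, with a median difference of -0.17. AMPA and kainate auxiliary subunits were higher in 7 and lower in 12 of 19 (median -0.06), excitatory scaffold genes higher in 6 and lower in 12 of 18 (median -0.07), and GABA receptor scaffold and auxiliary genes higher in 6 and lower in 9 of 15 (median -0.07). Genes of glutamate synthesis and transport were even, at 6 and 6 of 12 (median 0.01). The median of all probe sets was also 0.01. In the same order, the lists averaged -0.17, -0.25, -0.26, -0.08 and 0.22 in MPTP mouse 1, relative to the control mean. In MPTP mouse 2 they averaged -0.13, -0.02, -0.02, 0.01 and -0.15, with 12 of the 19 auxiliary subunits above the control mean. These averages mix genes that departed in opposite directions. Among the GABA genes, Gad2 was 10.69 and 11.68 in MPTP mice 1 and 2, against 11.63 and 11.65 in controls. Slc6a11 was 11.82 and 10.08, against 10.83 and 10.84. Slc17a6, a glutamate gene also on the thalamus, septum and pallidum list, was 12.12 and 8.03, against 9.34 and 9.32. Slc1a3, the glial glutamate transporter, differed by -0.48 (SE 0.20, adjusted p = 0.93), with 10.40 and 11.01 in MPTP mice 1 and 2 and 11.19 in both controls. Slc17a7, the vesicular glutamate transporter of cortical neurons, was lower in non-acupoint than in MPTP mice by a difference of -1.92 (SE 0.63, adjusted p = 0.71) and in acupoint mice by -1.62 (SE 0.63, adjusted p = 0.90). It was 9.79 and 9.50 in MPTP mice, 7.77 and 8.28 in acupoint mice and 6.61 and 8.84 in non-acupoint mice, each in the order of mouse 1 and 2. Cortical markers, a list that holds Slc17a7 itself, averaged -0.01 and -0.16 in MPTP mice, -0.41 and -0.62 in acupoint mice and -0.65 and -0.03 in non-acupoint mice, and their part in these values was not tested. Cacng2, which encodes the AMPA auxiliary subunit stargazin, was lower in non-acupoint mice than in controls by a difference of -0.33 (SE 0.10, adjusted p = 0.77).

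Glycine receptors, the other family of inhibitory chloride channels, had examples of both patterns. Glra2 had 8.73 and 8.86 in controls, 8.30 and 8.42 in MPTP mice, 8.89 and 8.42 in acupoint mice and 8.95 in both non-acupoint mice. As for Gabrg1, both MPTP mice were below both controls, but here acupoint mouse 2 was level with MPTP mouse 2. The difference was -0.44 for MPTP against control (SE 0.16, adjusted p = 0.93) and 0.59 for non-acupoint against MPTP (SE 0.16, adjusted p = 0.63). Glra1 had 6.34 and 6.39 in controls, 8.66 and 5.34 in MPTP mice, 6.89 and 6.69 in acupoint mice and 6.86 and 7.44 in non-acupoint mice, with the split between MPTP mice seen for Gabbr2.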

How the data were processed

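Per the labels, RNA came from the bilateral striatum, and 300 ng of total RNA entered the labelling reaction. Per the submitters' processing notes, the authors ran RMA in Affymetrix Expression Console (version not stated). The deposited table holds a log2 value per probe set and array, quantile-normalised by RMA, so a shift shared by most genes cannot be seen. The values were used as they stand; all columns belong to samples of the series. The genome build behind the arrays' annotation is not given in the sources used here. Promoter sequences are RefSeq's, on GRCm38.p6.

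Of 35557 probe sets, 21789 had 1 symbol in the platform's gene table. Those with a mean of at least 5.25, the 25th percentile, were tested (16342 probe sets). The lmFit and eBayes functions of limma 3.58.1 (R 4.3.3) fitted the 4 groups together, with 4 residual and 2.94 prior degrees of freedom and Benjamini-Hochberg adjustment over all probe sets at 0.05. An exact permutation test of 2 against 2 cannot give a two-sided p below 0.333. The fit was tested on simulated data of 16342 probe sets for MPTP against control. It recovered 94% of probe sets changed by 2, 54% by 1 and 1.33% by 0.5. All simulated arrays shared a common spread per probe set. The measured spread was unequal: for the receptor genes tested, the pooled standard deviation was 0.58 between MPTP mice and 0.08 between control mice. The recovery rates therefore do not give the power for those genes. The number of arrays limits the precision. The labels number the mice but say nothing of shared litters or days.

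Lists and members were chosen with earlier results of these data known, and the ependymal, septal and hypothalamic lists later still. Values in every array are given for up to 2 higher and 2 lower non-overlapping genes per main comparison by p. They are also given for the 8 widest ranges, the 4 smallest F-test p-values and a fixed set of subunits. Glra1 and Glra2 beyond these were named for their values. Alternatives were other filters, normalisations, shrinkage, array weights, fits of 2 groups, averaged probe sets, a thalamus marker covariate, the mouse number as a block and each array left out.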

Additional observations from a re-analysis of the deposited data

How the results depend on the processing

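The count of 0 of 38 genes called by limma stayed at 0 in all 7 tests under the other filters on dim probe sets, both other normalisations, trend and robust shrinkage, array weights, averaged probe sets, fits of only the groups compared (6 comparisons, without the F-test), the thalamus marker covariate and the replicate block. With 1 array left out it ranged from 0 to 14 for MPTP against control, 0 to 14 for acupoint against MPTP, 0 to 10 for non-acupoint against MPTP and 0 to 5 for the F-test. Each of those higher counts came without MPTP mouse 2, where mouse 1 is assumed to vary like the other groups and where 9.83%, 8.89%, 4.86% and 3.17% of all probe sets were called in the same order. Genes at an unadjusted p under 0.05 numbered 2 with array weights for MPTP against control (6 in the fit reported), where the share of all probe sets was 2.26%. For acupoint against MPTP (3) they numbered 1 with array weights (1.33% of all probe sets) or only these groups (1.32%) and 9 with the thalamus marker covariate, which gave 16 for non-acupoint against MPTP (6), 2 for acupoint against control (0) and 9 for the F-test (5). With this covariate the shares of all probe sets were 9.09%, 16.1%, 5.89% and 10.6%. For non-acupoint against control (3) they numbered 8 with only these groups (13.1% of all probe sets), 6 with array weights (13.6%) and 1 with the filter at the median (6.29%). The 16 named differences kept their direction in every setting that could be fitted. Without MPTP mouse 2, Gabra4 in MPTP against control (0.63, adjusted p = 0.035) and Gabre in non-acupoint against MPTP (0.69, adjusted p = 0.022) passed. The labels do not say what same-numbered mice shared. Correlations of their deviations ran from -0.49 to 0.40 over 6 pairs of groups, which cannot show whether they shared a day or litter. The replicate block gave 6 genes at an unadjusted p under 0.05 for MPTP against control, as without it. Gabre and Gabrq, which lie below it, could not be fitted under the filter at the median. With 2 mice a group, a p that misses the threshold does not show that values are alike.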
